A study of Mus musculus with 386 samples.

Results

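Mouse oocytes at postnatal day 6.5 (P6.5) were compared with oocytes at postnatal day 2.5 (P2.5) across all genes of the deposited count table. All 364 libraries of these ages were used, of 386 in the series, with 47 at P6.5 and the rest at P2.5. At P2.5, 24 library pairs were far closer to each other than other pairs, and each was counted as 1 cell. That left 340 cells, 47 of them at P6.5. Whether such a pair came from 1 cell is not stated in the labels. The study asks which gene networks go with the choice between dormancy and growth in primordial follicles. Its female germ cells were picked one at a time from dissociated ovaries, and polyadenylated RNA was read with Smart-seq2, which amplifies full-length copies of the RNA of a single cell and carries no molecular identifiers.

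The P6.5 group held hand-picked female germ cells of mice of that age, with no treatment named, and the P2.5 group held the same kind of cell at the earlier age. The labels give no strain, animal, litter or follicle stage, so each age was treated as 1 sample of many cells. There is no replicate check of any difference between the ages, and no test was made. Values per cell show how cells of an age vary, not how animals vary. Intervals cover the counting of reads only.

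In the days after birth a mouse oocyte is enclosed by flat pregranulosa cells in a primordial follicle, where it may stay dormant for months. A first wave of follicles starts to grow at once, and its oocytes enlarge, build the egg coat and fill their cytoplasm with messenger RNA that is stored for meiosis and the early embryo. Stored messages are kept with short poly(A) tails by RNA-binding proteins, which matters for a method that captures RNA by its poly(A) tail. Growth and egg coat genes are left out of the rankings of single genes here, and the account follows the rest of the genome. Counts over all genes and the promoter groups still include them.

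Gene counts per cell ran from 5714357 to 15799302 at P6.5 and from 435560 to 26897828 at P2.5. Each cell carried ERCC spike-ins, synthetic RNAs added in principle in equal amounts. The median cell had 3203 gene counts per spike-in count at P6.5 and 465 at P2.5, a 6.89-fold difference, and the shares of counts described here sit on top of that difference. Genes with a count after thinning every cell to 400000 counts had a median of 11969 at P6.5 and 11775 at P2.5. All cells of both ages held germ cell transcripts (Ddx4, Dazl, Dppa3, Mael, Taf4b and Sycp3). Markers of another cell type reached 10 counts after thinning to 100000 counts in 2 of 47 P6.5 cells (4.26%) and in 45 P2.5 cells (15.4%). Mitochondrially encoded rows took a median of 1.82% of counts at P6.5 and 2.75% at P2.5.

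Counts of all cells of an age were added up and given as counts-per-million, or CPM. Genes counted as measured when they reached 1 CPM in either sum and had a count in at least 3 cells, and their log2 ratio, P6.5 over P2.5, was taken after adding 0.5 CPM to both sums. Among 14643 measured genes, P6.5 cells had at least 2-fold more CPM of 1011 (6.9%) and at least 2-fold less of 1362 (9.3%). At least 8-fold differences were found for 43 genes in the higher and 10 in the lower direction. Over all measured genes the median log2 ratio was -0.18, with quartiles of -0.58 and 0.24. TMM scaling moved that median to 0.04 and turned the split to 1369 higher and 860 lower genes, and median-of-ratios scaling moved it to 0.10 with 1510 higher and 754 lower genes. Per spike-in count the median was 2.60, 14464 genes were at least 2-fold higher and only 2 (0.0137%) at least 2-fold lower. A gene called lower here therefore took a smaller share of a cell's messages. Nearly all such genes had more counts per spike-in count in P6.5 cells. Reading that as more RNA takes the spike-in amount as equal at both ages, which was not tested. No gene separated the ages without any overlap of single cells. Every P6.5 cell lay below the P2.5 median for 326 of the 14643 measured genes, and above it for fewer genes. Among genes called at least 2-fold the order was reversed, with more such genes in the higher than in the lower direction.

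**Figure D1:**
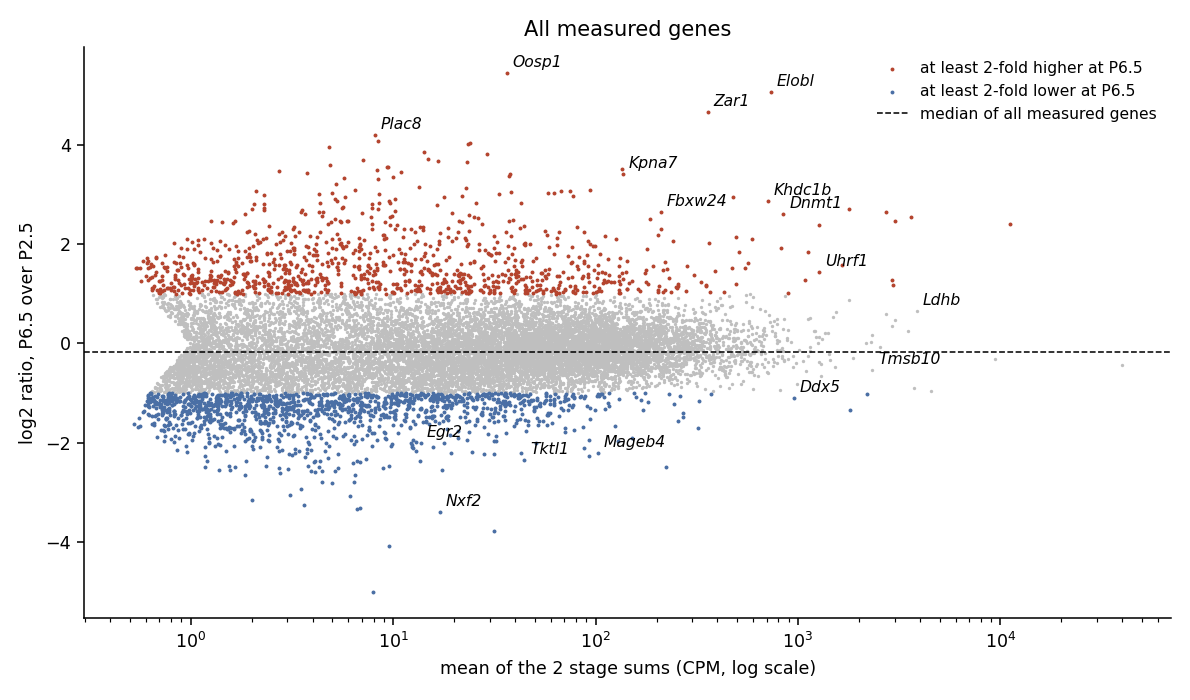
Each point is 1 of 14643 measured genes, with the mean of the P6.5 and P2.5 sums in CPM on a log axis across and the log2 ratio, P6.5 over P2.5, upward. Red points passed 2-fold in the higher direction (1011), blue points at least 2-fold lower as a share of counts (1362), of which 2 were 2-fold lower per spike-in count, and the dashed line is the median of -0.18.

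The 15 highest ratios were taken among genes outside the growth, egg coat and subcortical complex lists, leaving out numbered gene models, that reached 20 CPM and 50% of the cells at P6.5, and Elobl, an elongin B-like gene on chromosome 11, led them. Elobl had 196.3, 1427 and 3406 CPM in the lowest, median and highest P6.5 cell, against 0, 11.5 and 296.6 CPM in P2.5 cells. The P6.5 cells lay high throughout, and the lowest of them was below the highest P2.5 cell, so the ranges overlapped at their edge. Its log2 ratio without added CPM was 5.09 (95% counting interval 5.08 to 5.10). Zar1 (chr5:72576806-72581254) encodes an RNA-binding protein that organises stored maternal messages. Zar1 had 15.4, 562 and 2712 CPM in the lowest, median and highest P6.5 cell, against 0, 10.6 and 303.7 CPM in P2.5 cells, a log2 ratio without added CPM of 4.69 (95% counting interval 4.68 to 4.70). Every P6.5 cell was above the P2.5 median of both genes, and no P2.5 cell reached the P6.5 median of Zar1. Kpna7 (chr5:144983519-145084030), the importin alpha of oocytes and early embryos, had 30.6, 268.1 and 436 CPM in the lowest, median and highest P6.5 cell, against 0, 9.56 and 130.1 CPM in P2.5 cells. Its log2 ratio without added CPM was 3.44 (95% counting interval 3.43 to 3.46) and all 47 P6.5 cells were above the P2.5 median. Oosp1 (chr19:11667460-11691150), a secreted oocyte protein of the egg coat list, had 0.291, 43.8 and 420.0 CPM in the lowest, median and highest P6.5 cell, against 0, 0 and 24.6 CPM in P2.5 cells. It was seen in 100% of P6.5 cells and 13.99% of P2.5 cells after thinning, and its log2 ratio was 5.44, or 5.95 (95% counting interval 5.89 to 6.005) without added CPM.

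Nxf2 (chrX:134944526-134964754) is an X-linked relative of the general messenger RNA export receptor with a germline pattern of expression. It was given as a marker of this comparison beside Oosp1, Zar1 and Kpna7, and it was lower at P6.5 where those were higher. Nxf2 had 0, 0 and 38.2 CPM in the lowest, median and highest P6.5 cell, against 0, 11.3 and 537 CPM in P2.5 cells. Most P6.5 cells had no count of it, and 19.1% of P6.5 cells and 72.7% of P2.5 cells had one after thinning. Its log2 ratio was -3.40, or -3.63 (95% counting interval -3.73 to -3.55) without added CPM, and it is 1 of 14 measured genes that stayed lower per spike-in count (-0.61, with 0.5 CPM added). The ages overlapped, since part of the P2.5 cells also had no count, while the highest P2.5 cell reached 537 CPM. Gene positions are those of GENCODE M21 on mm10.

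**Figure D2:**
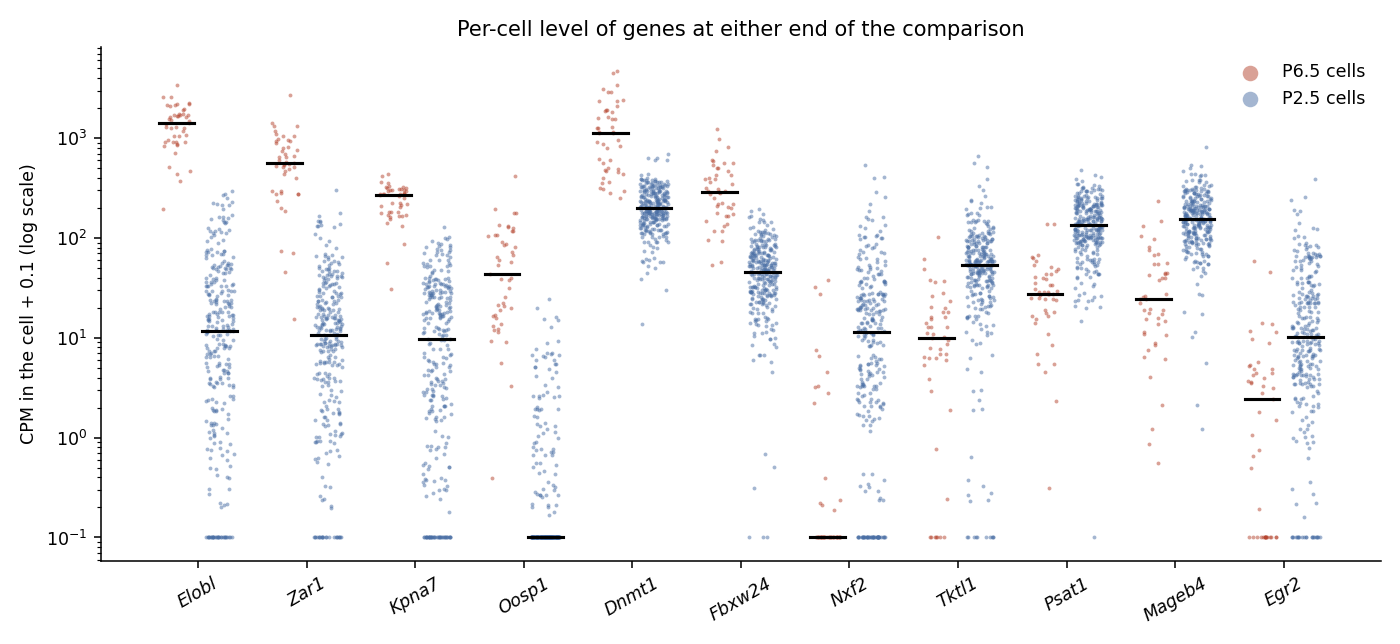
Every point is 1 cell, 47 at P6.5 (red, left of each pair) and the rest at P2.5 (blue, right), with CPM plus 0.1 on a log axis and a black line at the median. The P6.5 medians of Elobl, Zar1, Kpna7, Oosp1, Dnmt1 and Fbxw24 lie above every P2.5 cell, while those of Nxf2, Tktl1, Psat1, Mageb4 and Egr2 lie below the P2.5 medians as a share of counts, and of these 5 only Nxf2 was also lower per spike-in count.

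Other genes among the 15 have roles that are best known outside the ovary. Rasa4, an inactivator of RAS, had 45.8 CPM at P6.5 and 2.30 CPM at P2.5 (4.05 as a log2 ratio). Olfm1, a secreted olfactomedin, had 54.6 CPM at P6.5 and 3.43 CPM at P2.5 (3.81), and Scg3, a granin of secretory granules in endocrine cells, had 28.1 CPM at P6.5 and 1.69 CPM at P2.5 (3.71). Acp4, an acid phosphatase, and Ldhd, the D-lactate dehydrogenase of mitochondria, were seen in nearly all P6.5 cells and in few P2.5 cells. Acp4 was detected in 91.5% of P6.5 cells and 18.1% of P2.5 cells and Ldhd in 95.7% of P6.5 cells and 21.8% of P2.5 cells. Rnf182, a ubiquitin ligase, was detected in 95.7% of P6.5 cells and 20.1% of P2.5 cells, the largest rise in the share of cells among genes of at least 5 CPM outside the growth, egg coat and subcortical complex lists. Fam81b and Sidt1 followed it, then Ldhd, Acp4 and Plac8, and Plac8 was detected in 78.7% of P6.5 cells and 5.46% of P2.5 cells. Without thinning, 42.3% of P2.5 cells had a count of Acp4, 49.8% of Ldhd, 48.8% of Rnf182 and 23.9% of Plac8. Miox, which opens the ring of myo-inositol, had 168.1 CPM at P6.5 and 19.2 CPM at P2.5 (3.10), and Ninj2, a membrane adhesion protein, had 134.7 CPM at P6.5 and 15.5 CPM at P2.5 (3.08). Rgs2, which shortens G protein signals, had 69.5 CPM at P6.5 and 6.06 CPM at P2.5 (3.42). Ccdc69, Hpse (heparanase) and A4galt, a glycolipid galactosyltransferase, completed the 15 highest ratios at 3.37, 3.14 and 3.12. Of the 15, 12 had a Spearman correlation above 0.2 between their CPM and the gene counts per spike-in count across the 47 P6.5 cells (median 0.46), and 0 of 15 across the P2.5 cells (median -0.11). Across P6.5 cells 1 of the 15 was below -0.2, Elobl at -0.24, and across P2.5 cells 2 were. CPM and gene counts per spike-in count come from the same library of each cell, and the correlations are descriptions.

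Measured in CPM gained rather than in ratio, 6 abundant genes led. Ldhb, the lactate dehydrogenase subunit of oocytes, had 2943, 4574 and 7655 CPM in the lowest, median and highest P6.5 cell, against 728, 2741 and 8149.9 CPM in P2.5 cells, a log2 ratio of 0.65, short of 2-fold. Dppa3 (STELLA), which keeps UHRF1 out of the oocyte nucleus, had 3265 CPM at P6.5 and 2165 CPM at P2.5 (0.59), also short of 2-fold. The other 4 were Elobl, Dnmt1, Uhrf1 and Khdc1b. Khdc1b, an oocyte KH-domain gene, had 200.6, 1129.8 and 3159.8 CPM in the lowest, median and highest P6.5 cell, against 0, 101.2 and 1359.6 CPM in P2.5 cells (2.87). Each of these 6 genes was above its P2.5 median in every P6.5 cell, and the range of Ldhb at P6.5 lay wholly within that of P2.5 cells.

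The 6 largest differences in the other direction, in CPM, were of abundant genes, and only Ddx5 among them passed 2-fold. Ddx5 too was short of 2-fold with TMM or median-of-ratios scaling. Tmsb10, an actin-binding thymosin, had 1306, 1904 and 2352 CPM in the lowest, median and highest P6.5 cell, against 1186, 2644 and 9476 CPM in P2.5 cells (-0.53). Ddx5, an RNA helicase, had 388, 572 and 1117 CPM in the lowest, median and highest P6.5 cell, against 529.8, 1288 and 2434 CPM in P2.5 cells (-1.11). Ncl, the nucleolar protein nucleolin, had 712 CPM at P6.5 and 1254 CPM at P2.5 (-0.82). Sfr1, Eif5a and Alg13 had log2 ratios of -0.66, -0.56 and -0.29. All 47 P6.5 cells were below the P2.5 median of Tmsb10, Ddx5, Sfr1 and Ncl, and all 6 genes were higher per spike-in count.

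Factors that store and mask messages were among the lists with more higher members than the 6.9% of all genes. In that list 5 of 29 measured members were 2-fold higher and 0 lower, with a median log2 ratio of 0.10 beside -0.18 for all genes. These 5 were Zar1, its relative Zar1l (10.8 CPM at P6.5, 0.619 CPM at P2.5), the oocyte poly(A)-binding protein Pabpc1l (9.46 CPM at P6.5, 0.330 CPM at P2.5), the oocyte cap-binding protein Eif4e1b (15.2 CPM at P6.5, 2.92 CPM at P2.5) and Patl2 (46.6 CPM at P6.5, 13.03 CPM at P2.5), a translational repressor needed for oocyte maturation. Pabpc1l was uneven, with 0, 0 and 215.6 CPM in the lowest, median and highest P6.5 cell, against 0, 0 and 11.6 CPM in P2.5 cells, and 16 of 47 P6.5 cells were above the P2.5 median. Eif4e1b was above that median in 47 of 47 P6.5 cells.

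Of 54 poly(A) tail and decay factors, 4 were higher and 4 lower, 7.41% each way, near the 6.9% and 9.3% of all genes. Btg4, which brings the deadenylase complex to maternal messages in the maturing egg, had 159.7, 358 and 597 CPM in the lowest, median and highest P6.5 cell, against 1.38, 74.8 and 391 CPM in P2.5 cells (2.07). Cpsf4l, a relative of a cleavage and polyadenylation subunit, had 336 CPM at P6.5 and 73.2 CPM at P2.5 (2.19). In both genes all 47 P6.5 cells lay above the P2.5 median. Zfp36l1, which sends AU-rich messages to decay, had 0, 4.93 and 34.3 CPM in the lowest, median and highest P6.5 cell, against 0, 27.3 and 162.2 CPM in P2.5 cells (-2.21). Pan3, a subunit of a poly(A) nuclease, had 19.1 CPM at P6.5 and 48.5 CPM at P2.5 (-1.32). Zfp36l1 and Pan3 were lower only as a share of counts, and were higher per spike-in count.

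DNA methylation genes held 3 higher members among 13 (23.1%, beside 6.9% of all genes) and 0 lower, with a list median of 0.59. Growing oocytes are the cells in which the maternal methylation pattern is laid down after birth. Dnmt1, the maintenance methyltransferase with an oocyte-specific start site, had 250.2, 1125 and 4740.2 CPM in the lowest, median and highest P6.5 cell, against 13.8, 199.7 and 696 CPM in P2.5 cells (2.62). Uhrf1, the partner that guides DNMT1 to half-methylated sites, had 1127, 1782 and 3063 CPM in the lowest, median and highest P6.5 cell, against 99.4, 546 and 2388 CPM in P2.5 cells (1.44). The P2.5 medians of both lay under every P6.5 cell, and the ranges of the ages overlapped in both. Dnmt3c, a rodent methyltransferase known for silencing young retrotransposons in male germ cells, had 8.51 CPM at P6.5 and 1.92 CPM at P2.5 (1.90). Across the 47 P6.5 cells, Dnmt1 had a Spearman correlation of 0.63 with gene counts per spike-in count, and across the P2.5 cells of 0.10.

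Among 26 measured histone variants and chaperones, 4 were higher by 2-fold (15.4%, beside 6.9% of all genes) and 1 was lower (3.85%, beside 9.3%). Npm2, the nucleoplasmin that remodels sperm chromatin after fertilisation, had 802 CPM at P6.5 and 180.6 CPM at P2.5 (2.15). H1foo, the oocyte linker histone, had 966 CPM at P6.5 and 223.3 CPM at P2.5 (2.11). H2afv, a replication-independent H2A variant, had 46.8 CPM at P6.5 and 95.6 CPM at P2.5 (-1.02) and was higher per spike-in count. Histone methylation enzymes showed 0 of 37 higher and 2 lower (5.41%, beside 9.3% of all genes). Of these 2, Suv39h1, an X-linked H3K9 methyltransferase, had 1.84, 12.2 and 35.3 CPM in the lowest, median and highest P6.5 cell, against 0, 47.8 and 174.04 CPM in P2.5 cells (-1.86). All 47 P6.5 cells were below its P2.5 median as a share of counts, while the ratio of its sums was higher per spike-in count. The Zfp-numbered zinc fingers, many of them KRAB repressors of retrotransposons, had 9 of 334 members higher and 38 (11.4%) lower, beside 6.9% and 9.3% of all genes.

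Genes for F-box proteins, the substrate adaptors of SCF ubiquitin ligases, held 16 of 72 members 2-fold higher (22.2%, beside 6.9% of all genes). The proteasome held 1 of 48 and the ubiquitin-conjugating enzymes 0 of 32. Of the 72 F-box genes, 1 was lower (1.39%, beside 9.3% of all genes). The higher members were mostly Fbxw genes, of which 12 of 24 passed 2-fold, against 4 of 48 Fbxo and Fbxl genes. All 12 lie among 15 measured Fbxw genes on mouse chromosome 9 (mm10, chr9:109139447-109790670), a tandem array of closely related genes, and 0 of the 9 measured Fbxw genes elsewhere passed 2-fold. The other 3 of the array, Fbxw22, Fbxw18 and Fbxw26, had log2 ratios of 0.52, 0.59 and 0.65. Fbxw24 had 52.9, 291.2 and 1226 CPM in the lowest, median and highest P6.5 cell, against 0, 45.8 and 195.8 CPM in P2.5 cells (2.65). Fbxw15 had 85.1, 222.5 and 838 CPM in the lowest, median and highest P6.5 cell, against 0, 61.2 and 265.4 CPM in P2.5 cells (1.90). Fbxw20 had 14.2 CPM at P6.5 and 1.59 CPM at P2.5 (2.81). Every P6.5 cell was above the P2.5 median of Fbxw24 and Fbxw15. These genes are close copies, reads can be shared among them, and how such reads were counted is not stated in the labels. Outside the array, Fbxo5 (EMI1), which holds back the anaphase-promoting complex, had 59.5 CPM at P6.5 and 23.04 CPM at P2.5 (1.35). Fbxo5 and the array genes other than Fbxw24 and Fbxw20 were chosen for mention after their values were seen, as were Zar1l, Patl2, Tex11, Ldha, Egr1 and mt-Nd1.

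The stretches before the start sites of the array are shown because 12 of its genes were higher together. Each line gives 170 bases that end 1 base before the RefSeq start, 5′ to 3′ on the gene's strand (the minus strand in all), from RefSeq on GRCm38.p6, with CAGCTG and CACGTG in capitals. CAGCTG and CACGTG are forms of the E-box CANNTG, read the same on both strands. The windows are chr9:109626060-109626229 for Fbxw24, chr9:109568263-109568432 for Fbxw15, chr9:109339660-109339829 for Fbxw28, chr9:109746090-109746259 for Fbxw26 and chr9:109234755-109234924 for Fbxw20.
Fbxw24: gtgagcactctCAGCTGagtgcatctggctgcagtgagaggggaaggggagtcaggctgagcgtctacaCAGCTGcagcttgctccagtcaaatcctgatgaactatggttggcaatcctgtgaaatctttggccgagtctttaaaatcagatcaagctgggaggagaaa
Fbxw15: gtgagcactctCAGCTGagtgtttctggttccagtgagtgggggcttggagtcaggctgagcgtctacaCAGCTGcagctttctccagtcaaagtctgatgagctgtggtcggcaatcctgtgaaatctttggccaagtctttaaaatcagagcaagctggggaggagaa
Fbxw28: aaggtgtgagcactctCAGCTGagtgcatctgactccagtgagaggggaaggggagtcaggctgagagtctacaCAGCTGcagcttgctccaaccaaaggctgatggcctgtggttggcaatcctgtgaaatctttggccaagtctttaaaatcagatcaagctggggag
Fbxw26: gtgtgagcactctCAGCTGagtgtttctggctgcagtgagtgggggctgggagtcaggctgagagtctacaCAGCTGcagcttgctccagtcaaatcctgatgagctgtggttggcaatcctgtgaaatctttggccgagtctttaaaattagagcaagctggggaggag
Fbxw20: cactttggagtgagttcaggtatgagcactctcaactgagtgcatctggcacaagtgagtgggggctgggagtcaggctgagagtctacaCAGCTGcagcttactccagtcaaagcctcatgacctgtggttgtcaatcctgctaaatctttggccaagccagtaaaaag
Of 12 genes of the array with a window in the RefSeq table, 11 held CAGCTG in the 250 bases before the start and 10 held it at 2 places. In Fbxw24, Fbxw15 and Fbxw25 the motif began at -159 and -101 from the start, and in Fbxw20 only the nearer copy was found, at -80. Of all 13399 windows of measured genes, 12.6% held CAGCTG and 1.22% held it 2 or more times. Of the 7 Fbxw genes elsewhere with a window, 2 held it and 0 held it at 2 places. The windows resemble each other: aligned on the nearer CAGCTG, those of 9 other array genes matched 65.3% to 94.4% of bases of Fbxw24. Fbxw18, with 94.4% of bases matching, had a log2 ratio of 0.59 against 2.65 for Fbxw24. A match of letters is a description and not a bound site.

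The same window is shown for the genes that led the 15 highest and the 15 lowest ratios, Elobl at chr11:88966932-88967101 and Nxf2 at chrX:134964755-134964924.
Elobl: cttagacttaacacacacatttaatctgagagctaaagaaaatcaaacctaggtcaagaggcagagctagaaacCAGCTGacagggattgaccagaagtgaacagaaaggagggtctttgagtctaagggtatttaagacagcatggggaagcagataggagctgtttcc
Nxf2: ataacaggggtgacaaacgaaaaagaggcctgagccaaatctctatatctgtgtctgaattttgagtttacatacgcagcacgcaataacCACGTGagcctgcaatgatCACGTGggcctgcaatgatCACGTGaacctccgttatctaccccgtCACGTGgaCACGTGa
Elobl held 1 CAGCTG at -96 and no CpG pair in 250 bases. Nxf2 held 5 copies of CACGTG within 80 bases of the start and 16 CpG pairs in 250 bases. CACGTG was found in 8.30% of all windows, and 5 or more copies in 2 of 13399.

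Windows of genes with higher ratios had fewer CpG pairs than other windows. RefSeq windows were found for 10505 of the 14643 measured genes, with growth and egg coat genes kept in. The median window held 5 CpG pairs in genes at least 4-fold higher at P6.5 and 7 in those at least 2-fold higher, against 15 in all windows. Genes at least 2-fold lower had a median of 11. Within genes of like mean level the 2-fold higher genes again had the fewest. Under 10 CPM the medians were 5 for 2-fold higher genes, 9 for 2-fold lower genes and 11 for the rest. Between 10 and 100 CPM the same groups had 10, 14 and 17, and from 100 CPM 10, 18 and 18. The GC box GGGCGG was found in 30.3% of windows of 4-fold higher genes and 55.4% of all windows, and the ETS-type motif CCGGAAG in 3.24% of windows of 4-fold higher genes and 13.2% of all windows. Genes at least 4-fold lower held CCGGAAG in 2.11% and GGGCGG in 42.1% of windows. CAGGTG was found in 29.2% of windows of 4-fold higher genes and 16.9% of all windows. For CAGCTG the shares were 24.3% in 4-fold higher genes and 12.6% in all, and for any CANNTG 74.1% and 58.8% in the same order. TAATTG, the element bound by NOBOX in oocytes, was found in 8.65% of windows of 4-fold higher genes and 4.59% of all, but also in 9.47% of windows of 4-fold lower genes. CCAAT was found in 35.1% of windows of 4-fold higher genes and 35.7% of all. In genes at least 4-fold lower (95 windows), TATAAA was found in 14.7% of windows, against 6.71% of all, and per spike-in count nearly all genes were higher. The E-box CACGTG was found in 2.703% of windows of 4-fold higher genes, against 8.30% of all. Both strands were searched, CANNTG includes the other E-boxes, and the 9 motifs were chosen after their shares had been seen. The median GC content was 53.6% in windows of 4-fold higher genes and 59.2% in all windows, and the part of base composition in these shares was not tested.

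Kpna7 stood alone in its list. It was the only one of 29 importins and exportins past 2-fold in either direction, and the list median was -0.05. Of 27 nuclear pore genes, Nup214, on the cytoplasmic face of the pore, had 184.5 CPM at P6.5 and 76.7 CPM at P2.5 (1.26), and Nup205, of the inner ring, had 16.2 CPM at P6.5 and 43.9 CPM at P2.5 (-1.41). Nup205 was higher per spike-in count. Among 51 genes of RNA polymerase II and its general factors, 1 was higher (1.96%, beside 6.9% of all genes) and 4 lower (7.84%, near the 9.3% of all genes). Gtf2a1l, the germ cell form of TFIIA, had 14.8, 52.8 and 150.9 CPM in the lowest, median and highest P6.5 cell, against 0, 7.38 and 84.05 CPM in P2.5 cells (1.97), with all 47 P6.5 cells above the P2.5 median. Taf7l, the X-linked germ cell form of a TFIID subunit, had 0, 3.67 and 197.4 CPM in the lowest, median and highest P6.5 cell, against 0, 14.2 and 692 CPM in P2.5 cells (-1.77), and was higher per spike-in count. In both genes the ranges of the ages overlapped.

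Calcium handling genes, which serve the oscillations that a fertilised egg uses to resume meiosis, had 4 of 24 members higher (16.7%, beside 6.9% of all genes) and 0 lower. The summed CPM of the list was smaller at P6.5, with 2240.4 CPM in the median P6.5 cell and 2505 CPM in the median P2.5 cell, and 45 of 47 P6.5 cells below the P2.5 median. Plcb1, a phospholipase C, had 17.4 CPM at P6.5 and 3.13 CPM at P2.5 (2.30), and Cacna1h, a T-type calcium channel, had 24.7 CPM at P6.5 and 6.84 CPM at P2.5 (1.78). In the TGF-beta superfamily list, beside the oocyte factors Gdf9 and Bmp15, Tgfb2 had 2.58, 48.03 and 298.7 CPM in the lowest, median and highest P6.5 cell, against 0, 6.24 and 105.3 CPM in P2.5 cells (2.46). Of the measured solute carriers, 30 (13.5%) were higher and 18 (8.11%) lower, beside 6.9% and 9.3% of all genes. Slc23a3, an orphan member of the ascorbate transporter family, had 6.56, 51.3 and 192.5 CPM in the lowest, median and highest P6.5 cell, against 0, 0.782 and 83.9 CPM in P2.5 cells (3.01). Slc18a1, a vesicular monoamine transporter, had 10.3 CPM at P6.5 and 37.1 CPM at P2.5 (-1.79), and Slc13a4, a sulfate transporter, had 20.3 CPM at P6.5 and 70.1 CPM at P2.5 (-1.76). Of the adhesion and gap junction genes, Cdh3 (P-cadherin) had 66.4 CPM at P6.5 and 11.5 CPM at P2.5 (2.48) and the tight junction gene Cldn6 had 26.3 CPM at P6.5 and 75.99 CPM at P2.5 (-1.51). Slc18a1, Slc13a4 and Cldn6 were higher per spike-in count.

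Tubulin and actin genes had 7 of 47 members higher (14.9%, beside 6.9% of all genes) and 0 lower. Tubb3, a beta-tubulin best known from neurons, had 23 CPM at P6.5 and 4.11 CPM at P2.5 (2.35). Tubg2, the second gamma-tubulin, had 58.6, 348 and 633 CPM in the lowest, median and highest P6.5 cell, against 0, 51.5 and 289.9 CPM in P2.5 cells (2.30), and all 47 P6.5 cells were above the P2.5 median. Of 60 kinesins and dyneins, 2 were higher (3.33%) and 3 lower (5%), beside 6.9% and 9.3% of all genes. Kif17 had 64.9 CPM at P6.5 and 20.5 CPM at P2.5 (1.64) and Kif15, a spindle motor, had 18.02 CPM at P6.5 and 45.4 CPM at P2.5 (-1.31). Of 44 cyclin, CDK and arrest genes, 4 were higher (9.09%) and 5 lower (11.4%), near the 6.9% and 9.3% of all genes. Aurkc, the germ cell Aurora kinase, had 39.5 CPM at P6.5 and 7.80 CPM at P2.5 (2.27), and Cdc25b, the phosphatase that frees CDK1 at meiotic resumption, had 12.9, 145.97 and 379 CPM in the lowest, median and highest P6.5 cell, against 0, 29.7 and 216.1 CPM in P2.5 cells (1.801). Ccnb2 had 101.6 CPM at P6.5 and 214.97 CPM at P2.5 (-1.08) and Ccnh 55.4 CPM at P6.5 and 119.1 CPM at P2.5 (-1.10). Kif15, Ccnb2 and Ccnh were higher per spike-in count.

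The redox and glutathione list had 7 of 33 members higher (21.2%, beside 6.9% of all genes) and 3 lower (9.09%, beside 9.3%). Glrx (glutaredoxin) had 204.4 CPM at P6.5 and 47.1 CPM at P2.5 (2.11). G6pdx, the X-linked enzyme that makes NADPH at the entry of the pentose phosphate pathway, had 349, 807 and 1293 CPM in the lowest, median and highest P6.5 cell, against 13.4, 180.3 and 645 CPM in P2.5 cells (1.85), with all 47 P6.5 cells above the P2.5 median. Prdx4, the peroxiredoxin of the endoplasmic reticulum, had 20.1, 54.2 and 170.2 CPM in the lowest, median and highest P6.5 cell, against 18.4, 186.6 and 505 CPM in P2.5 cells (-1.66), with all 47 P6.5 cells below that median. Gstm1 had 0, 0.579 and 9.86 CPM in the lowest, median and highest P6.5 cell, against 0, 1.40 and 973 CPM in P2.5 cells (-2.42), and the highest P2.5 cell stood far above the P2.5 median. Prdx4 and Gstm1 were higher per spike-in count.

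In glycolysis, 1 of 18 genes was higher (5.56%, beside 6.9% of all genes) and 5 were lower (27.8%, beside 9.3%). The summed CPM of the list went the other way, with 7889.8 CPM in the median P6.5 cell and 5568 CPM in the median P2.5 cell, and 47 of 47 P6.5 cells above the P2.5 median. Gapdh had 467 CPM at P6.5 and 198.9 CPM at P2.5 (1.23) and Bpgm, which diverts a glycolytic intermediate, 788 CPM at P6.5 and 411 CPM at P2.5 (0.94), short of 2-fold. Bpgm is also on the growth list. Hk1, the first enzyme of the pathway, had 8.06 CPM at P6.5 and 30.1 CPM at P2.5 (-1.84). Aldoc had 4.88 CPM at P6.5 and 20.1 CPM at P2.5 (-1.94), and Ldha, the lactate dehydrogenase subunit of muscle, 11.7 CPM at P6.5 and 35.8 CPM at P2.5 (-1.57). Hk1, Aldoc and Ldha were higher per spike-in count. Psat1, an enzyme of serine synthesis, had 0.216, 27.6 and 139.3 CPM in the lowest, median and highest P6.5 cell, against 0, 135.2 and 481 CPM in P2.5 cells (-2.27), and 45 of 47 P6.5 cells were below the P2.5 median. Tk1 (thymidine kinase) had 71.4 CPM at P6.5 and 17.8 CPM at P2.5 (1.98) and Cad, which starts pyrimidine synthesis, 148.3 CPM at P6.5 and 391 CPM at P2.5 (-1.40). Psat1 and Cad were higher per spike-in count.

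Mitochondrially encoded messages took a smaller share of counts at P6.5, with 0 of 11 genes higher, 4 lower (36.4%, beside 9.3% of all genes) and a list median of -0.94. mt-Nd1, of complex I, had 648, 1332 and 2865 CPM in the lowest, median and highest P6.5 cell, against 796, 2916 and 10187 CPM in P2.5 cells (-1.02). mt-Co2, of complex IV, had 5.47 CPM at P6.5 and 18.6 CPM at P2.5 (-1.68), and mt-Nd2, the highest of the list, had a log2 ratio of -0.35. The level of mt-Co2 was far below that of mt-Nd1, and 11 of 13 listed genes were measured. How multiply mapped reads were counted is not stated, so the counts of such a low row need not give the level of its message. All 11 were higher per spike-in count. Nuclear genes of the respiratory chain had 0 of 84 higher and 1 lower with a median of -0.28, and mitochondrial ribosomal proteins had 0 of 77 in either direction. In mitochondrial import, Timm9 and Timm17a, which thread proteins through the inner membrane system, had log2 ratios of 1.10 and 1.03.

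Large sets of core machinery stayed within 2-fold as a share of counts. Of 86 cytosolic ribosomal protein genes, 0 were higher and 1 was lower, the germline retrogene Rpl10l with 35.6 CPM at P6.5 and 120.2 CPM at P2.5 (-1.74), and the list median was -0.13. Rpl19 had a log2 ratio of 0.34. No aminoacyl-tRNA synthetase (20 measured), ubiquitin-conjugating enzyme (32), autophagy gene (24), cholesterol synthesis gene (24) or tricarboxylic acid cycle gene (24) passed 2-fold. Ribosome biogenesis had 0 of 49 members higher and 4 lower, a share of 8.16% near the 9.3% of all genes, with Rrs1 at -1.56 and Dkc1, the X-linked pseudouridine synthase, at -1.28. Endoplasmic reticulum folding had 2 of 39 higher (5.13%, beside 6.9% of all genes) and 0 lower. The 2 were the chaperones Calr (850.1 CPM at P6.5, 277.5 CPM at P2.5) and Hsp90b1 (492 CPM at P6.5, 240.5 CPM at P2.5). Rpl10l, Rrs1 and Dkc1 were higher per spike-in count.

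**Figure D3:**
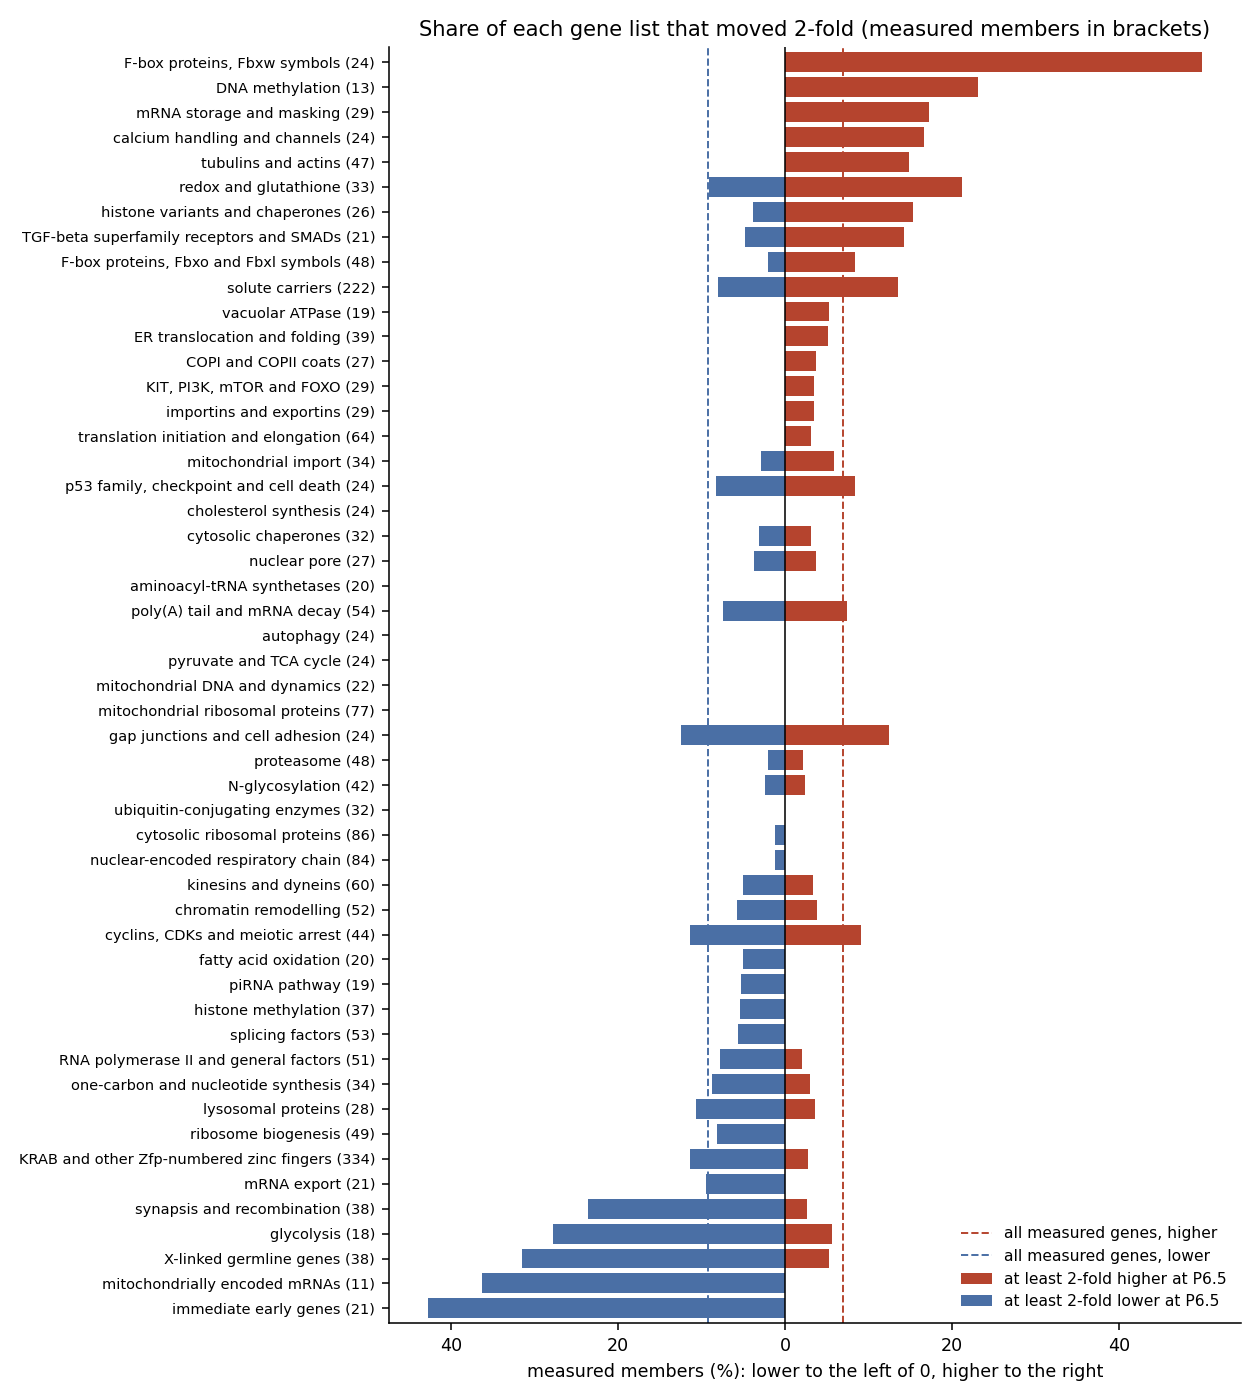
Bars give the percent of the measured members of each list (number in brackets) past 2-fold in the higher direction at P6.5 (red, right) or at least 2-fold lower as a share of counts (blue, left), and dashed lines give the same for all measured genes, 6.9% and 9.3%. The F-box list is drawn split into its Fbxw genes and its Fbxo and Fbxl genes, and 22.2% of the whole list was higher. With that split, Fbxw genes stand at the top and immediate early genes at the bottom. Every list shown had a median above 0 per spike-in count.

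The 15 lowest ratios were taken by the same limits at P2.5, 20 CPM and a count in 50% of cells, together with mean CPM over cells that differed 2-fold, so genes below these limits can have lower ratios. They mixed germline, metabolic and signal-response genes, led by Nxf2. Tmc2, a transmembrane channel-like protein of hair cells, had 0, 4.67 and 15.1 CPM in the lowest, median and highest P6.5 cell, against 0, 24.01 and 148.9 CPM in P2.5 cells (-2.54). Fuca2, a secreted fucosidase, had 4.07 CPM at P6.5 and 23.1 CPM at P2.5 (-2.37), and Kyat3, an aminotransferase of the kynurenine route, had 32.5 CPM at P6.5 and 142.2 CPM at P2.5 (-2.11). Every P6.5 cell lay below the P2.5 median of Tmc2, Snhg11, Yjefn3 and Platr14. Snhg11, a snoRNA host transcript, had 9.59 CPM at P6.5 and 46.9 CPM at P2.5 (-2.23), and Platr14, a noncoding RNA named for pluripotent cells, 8.52 CPM at P6.5 and 40.6 CPM at P2.5 (-2.19). Yjefn3, Epp13 and Spats2l had log2 ratios of -2.22, -2.09 and -2.08. Tsc22d3 (GILZ), a target of glucocorticoid and FOXO signals, had 14.8 CPM at P6.5 and 70.4 CPM at P2.5 (-2.21), and 44 of 47 P6.5 cells were below the P2.5 median. Of the 15 genes Nxf2 alone was lower per spike-in count. Among genes of at least 5 CPM at P2.5, with numbered gene models, clones and pseudogenes left out, the shares of cells with a count dropped most for Nxf2, Dcn, Hba-a1, Zfp711, Ccdc173 and Pm20d1, and the last 2 were found in 34.04% of P6.5 cells and 80.5% of P2.5 cells and in 31.9% of P6.5 cells and 78.2% of P2.5 cells.

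X-linked genes were lower more often than autosomal genes. Of 537 measured X-linked genes, 21.4% were at least 2-fold lower and 22 (4.10%) higher. Of 14000 autosomal genes, 8.74% were lower and 7.04% higher, and single autosomes ranged from 5.11% lower on chromosome 4 to 12.6% on chromosome 3. The median log2 ratio was -0.40 on the X chromosome and -0.17 on autosomes, a gap of -0.22, which was -0.23 with TMM and with median-of-ratios scaling. With no filter on low values the gap was -0.000392. The share of X-linked genes called lower was 14.7% with TMM, 13.04% with median-of-ratios scaling and 6.40% with no filter. The gap was there at each mean level: 26.05% of X-linked and 15% of autosomal genes were lower at 1 to 10 CPM, 20.7% and 5.47% at 10 to 100 CPM, and 6.98% and 1.13% above that. Leaving out 38 measured X-linked germline genes left 20.6% lower. Per cell, X-linked genes took 2.50%, 2.93% and 3.53% of counts in the lowest, median and highest P6.5 cell, against 1.89%, 3.25% and 4.49% in P2.5 cells. Of the P6.5 cells, 41 of 47 were below the P2.5 median, and the ranges overlapped widely. Per spike-in count 0 X-linked genes were 2-fold lower and their median was 2.39, against 2.61 on autosomes.

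**Figure D4:**
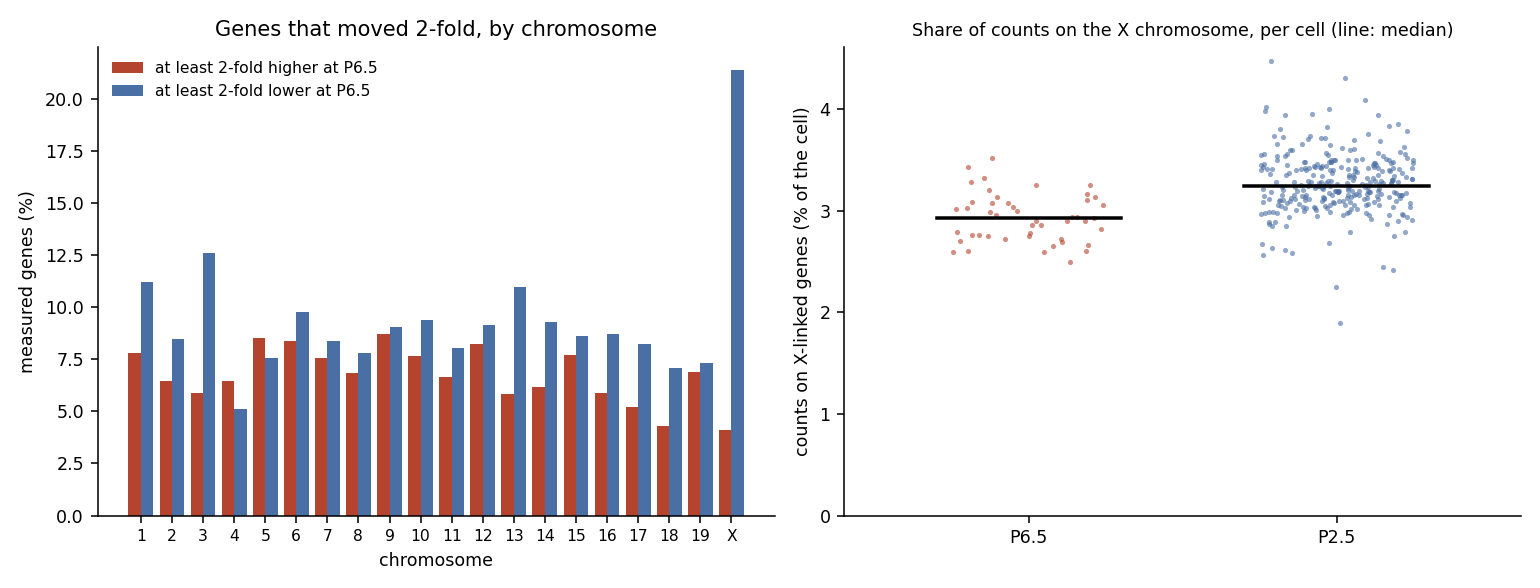
Left, percent of measured genes per chromosome that were at least 2-fold higher (red) or lower as a share of counts (blue) at P6.5, with 21.4% lower on X and at most 12.6% on an autosome; per spike-in count no X-linked gene was 2-fold lower. Right, the percent of each cell's counts on X-linked genes for 47 P6.5 cells (red) and for P2.5 cells (blue), with medians (lines) of 2.93% and 3.25%.

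The X chromosome carries many genes used only in germ cells, and that list had 12 of 38 measured members lower (31.6%, beside 9.3% of all genes) and 2 higher, Bmp15 and Rhox10, with a list median of -0.67. The summed CPM of the list was close, with 3025 CPM in the median P6.5 cell and 3055 CPM in the median P2.5 cell. Tktl1, a transketolase-like gene, had 0, 9.80 and 101.3 CPM in the lowest, median and highest P6.5 cell, against 0, 53.7 and 668 CPM in P2.5 cells (-2.35). Mageb4, of the MAGE antigen family, had 0.451, 24.2 and 233.8 CPM in the lowest, median and highest P6.5 cell, against 1.13, 155.6 and 824 CPM in P2.5 cells (-2.21), and 46 of 47 P6.5 cells were below the P2.5 median. Zfp711, a zinc finger activator, is also X-linked and was named from the Zfp-numbered zinc finger list. It had 0, 0 and 45.9 CPM in the lowest, median and highest P6.5 cell, against 0, 6.83 and 207.7 CPM in P2.5 cells (-2.03). Tex11, a meiotic crossover factor, had 63.3 CPM at P6.5 and 159.8 CPM at P2.5 (-1.33). Tktl1, Mageb4, Zfp711 and Tex11 were higher per spike-in count.

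Genes of synapsis and recombination, steps completed before birth, had 9 of 38 members lower (23.7%, beside 9.3% of all genes, Tex11 among them) and 1 higher, with a median of -0.32. Meiob, which binds recombining DNA, had 0, 0.465 and 11.3 CPM in the lowest, median and highest P6.5 cell, against 0, 5.56 and 67.1 CPM in P2.5 cells (-2.23), and Syce3, of the central element of the synaptonemal complex, had 0, 2.51 and 17.9 CPM in the lowest, median and highest P6.5 cell, against 0.277, 14.3 and 114.5 CPM in P2.5 cells (-2.06). Both were still present in part of the P6.5 cells, Meiob in 34.04% of P6.5 cells and 73.7% of P2.5 cells and Syce3 in 61.7% of P6.5 cells and 96.6% of P2.5 cells. Sycp2, of the lateral element, went the other way with 25.9 CPM at P6.5 and 11.4 CPM at P2.5 (1.15). Meiob and Syce3 were higher per spike-in count.

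Immediate early genes, switched on within minutes by growth factors or by handling of cells, had 9 of 21 members lower (42.9%, beside 9.3% of all genes) and 0 higher, and a list median of -0.87 beside -0.18 for all genes. Fos had 0, 9.84 and 70.1 CPM in the lowest, median and highest P6.5 cell, against 0, 32.1 and 653 CPM in P2.5 cells (-1.97), and Egr2 had 0, 2.32 and 58.2 CPM in the lowest, median and highest P6.5 cell, against 0, 10.1 and 392 CPM in P2.5 cells (-2.01). Egr1 had 52.2 CPM at P6.5 and 205.9 CPM at P2.5 (-1.97). Their summed level per cell had a median of 252.9 CPM at P6.5 and 569 CPM at P2.5. The highest cells of both genes were P2.5 cells, and handling times are not given in the labels. Fos, Egr1 and Egr2 were higher per spike-in count.

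Markers of other ovarian cells were counted in each cell. Erythroid markers (4 measured, median log2 ratio -2.99) reached 10 counts in 0 of 47 P6.5 cells, which allows a share of up to 7.55% by the exact interval, and in 22 P2.5 cells (7.51%). Hba-a1 had 0, 0.263 and 12.7 CPM in the lowest, median and highest P6.5 cell, against 0, 3.89 and 1356 CPM in P2.5 cells and Hbb-bs had 0, 0 and 26.5 CPM in the lowest, median and highest P6.5 cell, against 0, 2.88 and 718 CPM in P2.5 cells. Both were lower per spike-in count too, at -1.29 and -0.54. Stroma and theca markers were seen in 4.26% of P6.5 and 5.46% of P2.5 cells, and granulosa and pregranulosa markers in 2.13% of P6.5 and 4.44% of P2.5 cells, with overlapping exact intervals in both. The stroma and theca list had a median log2 ratio of stage sums of 0.63, with 6 of 7 measured members above 0. Per cell the list went the other way. Its summed CPM was 1.51 in the median P6.5 cell and 12.96 in the median P2.5 cell, with 45 of 47 P6.5 cells below the P2.5 median. The highest P6.5 cell held 962 CPM of this list. Dcn, a stromal proteoglycan, was detected in 10.6% of P6.5 cells and 64.2% of P2.5 cells, while its sums were 6.46 CPM at P6.5 and 8.64 CPM at P2.5. The highest P6.5 cell had 193.9 CPM and the median P6.5 cell had 0. Per spike-in count the log2 ratio of its sums was 2.39. Without the cells that held any of these markers, 997 genes were 2-fold higher and 1258 lower, and 947 and 1199 of the genes called with all cells were called again.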

How the data were processed

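Counts per gene and cell were deposited by the authors, with STAR 2.7.10b, HTSeq 0.13.5, RSEM 1.3.3 and build mm10 named in the submitters' processing notes. Strand settings and the treatment of multiply mapped reads are not stated there. The deposited FPKM values were used only as an alternative. Libraries were grouped by the age in the labels. For P2.5 library pairs with a median chi-square up to 1.03 the counts were summed (all other nearest pairs had at least 2.84). Counts of the cells of an age were summed, without spike-ins, and scaled here to CPM. Log2 ratios used 0.5 added CPM; 95% intervals are exact, conditional on the summed count of a gene, and cover counting error only, since amplified reads carry no molecular identifiers. Called means at least 2-fold. Detection used cells thinned to 400000 counts. Per spike-in ratios add the log2 of the ratio of median gene counts per spike-in count (2.79).

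Genes were named by fixed ends: 15 highest and lowest ratios, 6 largest gains and losses in CPM, 6 largest changes in detection, up to 2 members at either end of each of 61 lists, and the given markers, plus the few picked later that the text names as such. The members and lists were chosen with earlier results of these data known. The steps were tested on simulated counts. Python 3.11.15, numpy 2.4.6, pandas 2.3.3, scipy 1.17.1, R 4.3.3, edgeR 4.0.16 and DESeq2 1.42.0 (scaling factors only) were used.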

Additional observations from a re-analysis of the deposited data

How the results depend on the processing

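The number of genes at least 2-fold higher at P6.5 (1011) was within 1.5 times of itself under 12 of 14 alternatives, and the number lower (1362) under 9 of 14. Among the 14, taking every library on its own gives the same sums by construction, so its agreement is no check. The exceptions were 1728 higher and 715 lower with the median of per-cell CPM, 14464 higher and 2 lower per spike-in count, and 860, 754 and 746 lower with TMM scaling, median-of-ratios scaling and a filter of 5 CPM. Genes called lower with log2 ratios close to -1, such as Ddx5, Ccnb2, Ccnh, H2afv and mt-Nd1, were short of 2-fold with TMM and with median-of-ratios scaling. The median log2 ratio (-0.18) was 0.041 with TMM, 0.10 with median-of-ratios, 2.60 per spike-in count, -0.22 without mitochondrial and rRNA rows, -0.11 with the deposited FPKM, -0.012 with the median of per-cell CPM, -0.15 with 5 CPM and -0.036 with no filter. Without thinning, the median number of genes detected differed by -791 (P6.5 minus P2.5), against a higher median at P6.5 after thinning to 400000 counts. P6.5 library 32 had the highest CPM of Zar1 and of Oosp1 among P6.5 cells. Without that library 994 genes were higher and 1319 lower, an alternative chosen after seeing the data. No paired analysis was possible because the numbers in the labels name single cells and no result comes from a test. Depth limits genes near 1 CPM, and the causes of these shifts were not tested.

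Per spike-in count the direction turned for called lower genes, as the 6.89-fold difference in gene counts per spike-in count implies by construction. The log2 ratios were then Tmc2 0.24, Gstm1 0.37, Fuca2 0.42, Tktl1 0.44, Psat1 0.52, Snhg11 0.55, Meiob 0.55, Yjefn3 0.56, Zfp36l1 0.57, Tsc22d3 0.57, Mageb4 0.58 and Platr14 0.60. Those of Kyat3 0.67, Epp13 0.70, Spats2l 0.70, Pm20d1 0.71, Syce3 0.72, Zfp711 0.76, Ccdc173 0.78, Egr2 0.78, Fos 0.81, Egr1 0.81, Aldoc 0.84, Suv39h1 0.92, Hk1 0.95 and Slc18a1 0.99 were under 1. The rest were Taf7l 1.01, Slc13a4 1.02, Rpl10l 1.04, mt-Co2 1.10, Prdx4 1.13, Ldha 1.22, Rrs1 1.23, Cldn6 1.27, Nup205 1.37, Cad 1.39, Tex11 1.46, Pan3 1.46, Kif15 1.48, Dkc1 1.51, Ddx5 1.68, Ccnh 1.69, Ccnb2 1.71, H2afv 1.76 and mt-Nd1 1.77, and the surface epithelium list had a median of 0.79.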

Other observations

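Noncoding classes differed from protein-coding genes in their shares of called genes. Of 492 measured lincRNAs, 12.2% were higher by 2-fold and 20.5% lower, and of antisense RNAs 14.7% were higher and 12.8% lower. Of 12472 protein-coding genes, 6.67% were higher and 7.75% lower. Among genes annotated as still to be experimentally checked, 31.5% were lower, and among 675 processed pseudogenes 13.04%. LincRNAs took 0.514% of counts in the median P6.5 cell and 0.723% in the median P2.5 cell. Directions are of shares of counts, and per spike-in count only 2 of all measured genes were 2-fold lower.

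Gm47283, a gene annotated on the Y chromosome and named here after its values were seen, was nearly absent from P6.5 cells. It had 3 counts over 3 of 47 P6.5 cells, with no cell above 0.116 CPM, against a median of 14.1 CPM and a highest value of 86.3 CPM in P2.5 cells, nearly all of which had a count. In the 22 cells of embryonic day 17.5, all had a count, with a median of 21.6 CPM. The cells are female, and where the reads counted for this gene arose was not tested. Strain and animal are not given, so a difference between ages cannot be told apart from a difference between animals.

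P2.5 cells overlapped the lower end of the P6.5 cells in 3 of the 4 given markers. The lowest P6.5 value was reached by 23.9% of P2.5 cells for Oosp1, by 38.9% for Zar1 and by 22.5% for Kpna7, and the P6.5 median by 0 P2.5 cells for each.

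Within P6.5 cells, the 15 genes with the lowest ratios had a median Spearman correlation of -0.20 with gene counts per spike-in count (8 of 15 below -0.2), and within P2.5 cells a median of 0.03. The correlations are descriptions over 47 P6.5 cells and all P2.5 cells, and both measures come from the same library.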
